A study of Mus musculus with 24 samples.

Results

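The proteasome genes and Nfe2l1 of brown adipose tissue were taken as every row of the deposited expression table whose gene symbol begins with Psm, a letter from a to g and a number, together with Pomp and Nfe2l1; pseudogene symbols were left out. The rule found 51 of the 23017 genes in the table. Of the 51, 45 encode constitutive subunits, assembly chaperones, activators or an inhibitor of the proteasome, and 3 are the interferon-inducible catalytic subunits of the immunoproteasome, Psmb8, Psmb9 and Psmb10. The other 3 were the regulator Nfe2l1, the testis subunit Psma8, and Psmc3ip, a protein of meiotic recombination that shares only the symbol stem. All members except Psma8 passed the filter on low values, so 50 of the 17263 genes tested were members, including all 45 constitutive ones. The 45 are called constitutive here although they include Psme1, a subunit of an interferon-inducible activator. The members were picked by a rule on their names, and that rule was chosen with earlier results of these data known.

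The 24 libraries of polyA RNA came from brown fat of C57BL/6J mice in 4 groups of 6. The groups received TZP (tirzepatide, which activates the receptors of the incretin hormones GIP and GLP-1), LAGIPRA (an agonist of the GIP receptor with long action, as its name and the title are read here), vehicle with restricted feeding matched to another group (PairFedVehicle), or vehicle (Vehicle). The study's title describes the mice as obese and insulin resistant and the agonism as chronic. Diet, sex, age, dose, length of treatment and the group that set the pair-fed amount are not given in the sources used here, and the strain is shared by all groups.

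The proteasome is the barrel-shaped protease that degrades proteins tagged with ubiquitin. Its core particle is a stack of alpha rings, which gate the entry, and beta rings, which hold the catalytic sites, and it is capped by a regulatory particle whose ATPases unfold the substrate. NFE2L1 is a transcription factor made at the endoplasmic reticulum that induces proteasome genes when proteasome activity falls short, and in mouse brown fat it is known to sustain proteasome function during adaptation to cold. Interferon gamma exchanges the constitutive catalytic subunits for PSMB8, PSMB9 and PSMB10, which shifts the peptides cut for presentation on MHC class I.

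Values are log2 expression values as deposited, and differences are log2 differences between group means with their standard error (SE). They are not scaled to transcript length, so levels of single genes were not compared with each other. The number of reads behind each value is unknown. Brown adipocyte markers were present in every library: all 12 markers listed were tested, and their summed level ran from 16.78 to 17.71 (log2). Of the 12, 2 rose in TZP, 5 in LAGIPRA and 5 in PairFedVehicle against Vehicle, Ucp1 and Cidea among them each time. Of all genes tested, 11.7%, 8.7% and 4.96% were called higher in the same comparisons. Skeletal muscle markers varied widely within groups, with a summed level from 3.76 to 14.24 in TZP, 10.40 to 13.90 in LAGIPRA, 3.76 to 14.78 in PairFedVehicle and 4.07 to 14.48 in Vehicle, and their part in the results was not tested. In bulk tissue, fewer cells of a type and less RNA per cell cannot be told apart. The slope of a library's values on transcript length (change relative to the mean of all libraries, in log2 per doubling of length) ran from -0.165 to 0.0199 in TZP, against -0.0055 to 0.0582 in the other libraries; 4 TZP libraries, those numbered 3 to 6, lay between -0.165 and -0.0643. The commonest low value above 0 in each library, read here as the level of 1 read and larger in shallower libraries, averaged 1.32 in TZP, 1.35 in LAGIPRA, 1.15 in PairFedVehicle and 1.04 in Vehicle.

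**Figure D1:**
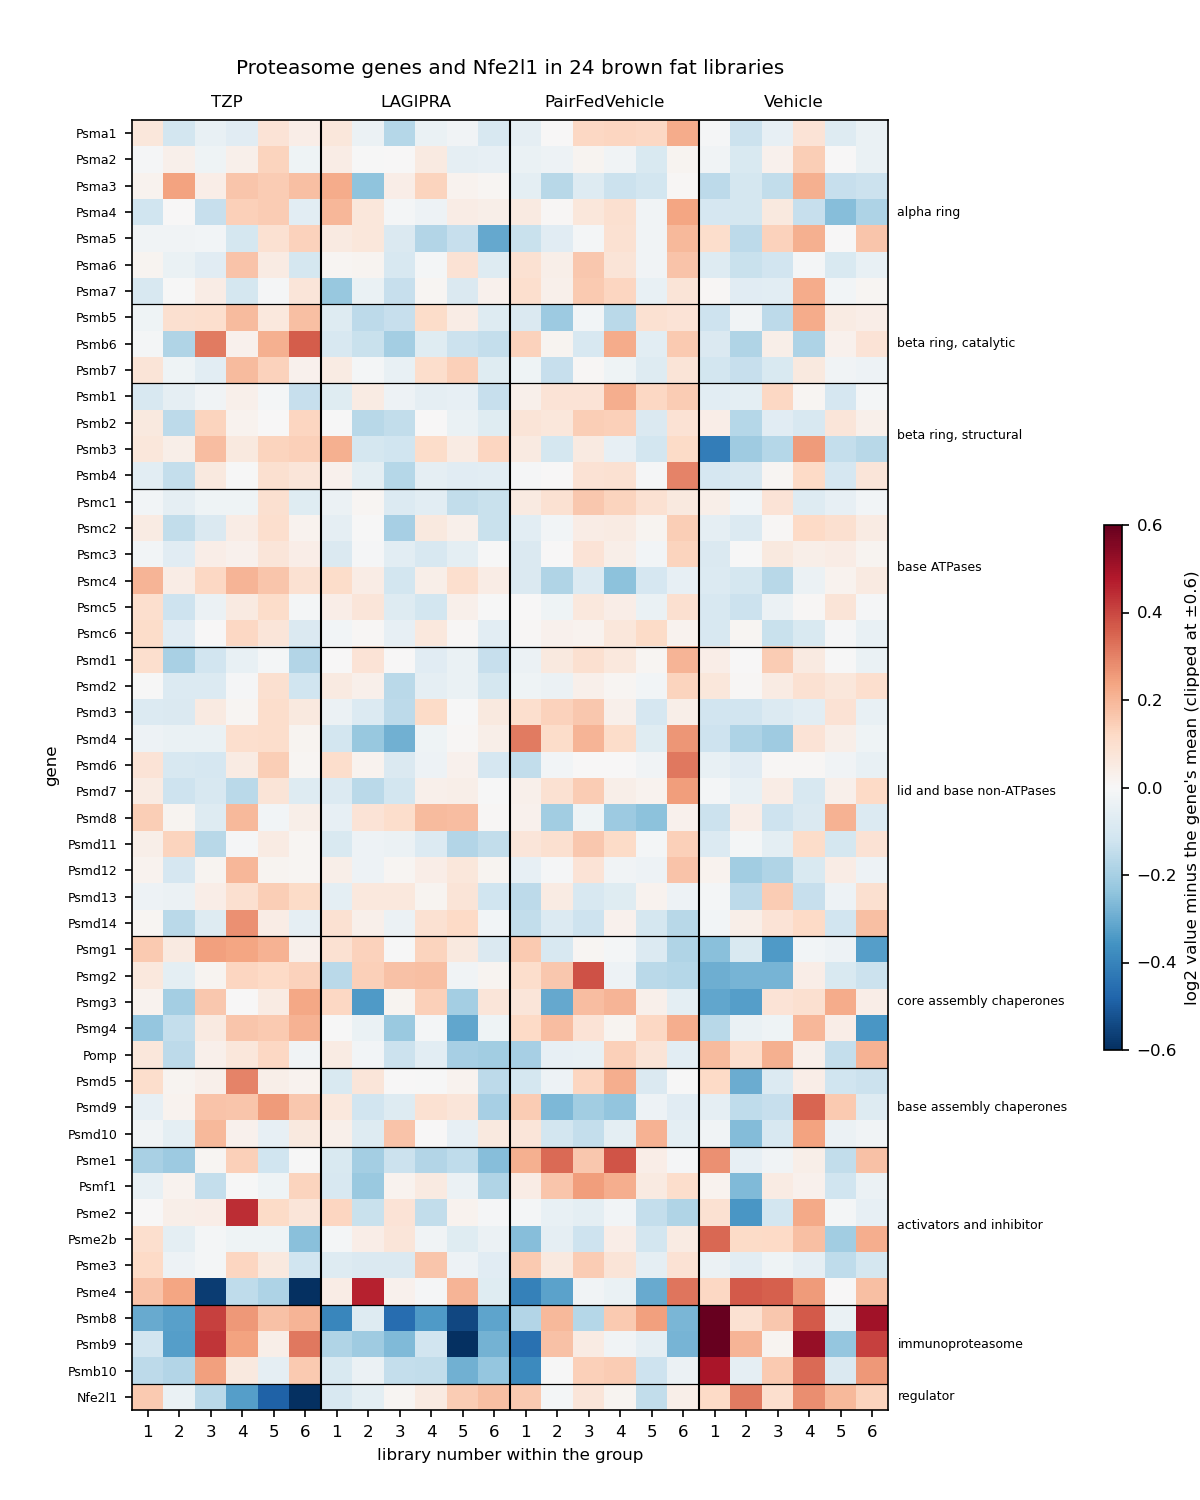
Each row is one of 45 constitutive proteasome genes, 3 immunoproteasome genes or Nfe2l1, each column one of 24 libraries, and colour gives the log2 value minus the mean of that gene over all libraries, clipped at 0.6 in either direction. Most of the constitutive rows are pale, with a median SD within groups of 0.101, while Psmb8, Psmb9, Nfe2l1 and Psme4 show the stronger colours.

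The constitutive proteasome genes differed little between groups. The median size of their log2 difference, whatever its sign, was 0.083 in TZP against Vehicle, 0.0618 in LAGIPRA against Vehicle and 0.1045 in PairFedVehicle against Vehicle. Over all genes tested it was 0.2269, 0.211 and 0.169 in the same comparisons. No constitutive member differed by more than 1.5-fold in any of the 6 comparisons between groups. The members were also measured with less spread than most genes: the median SD within groups was 0.101, with a range of 0.0554 to 0.26, against a median of 0.26 for all genes tested. They had shorter transcripts than all genes tested (medians 1883 and 2914 bases) and higher values (medians of the mean level 7.56 and 5.33). The part of length and of level in the smaller spread and differences was not tested.

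The 3 comparisons with Vehicle share the Vehicle libraries, and the 2 with PairFedVehicle share the PairFedVehicle libraries. The median deviation of the 45 constitutive genes from their means over all libraries ran from -0.05 to 0.09 in TZP, -0.08 to 0.00 in LAGIPRA, -0.02 to 0.09 in PairFedVehicle and -0.10 to 0.04 in Vehicle. The 4 groups overlapped on this measure.

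**Figure D2:**
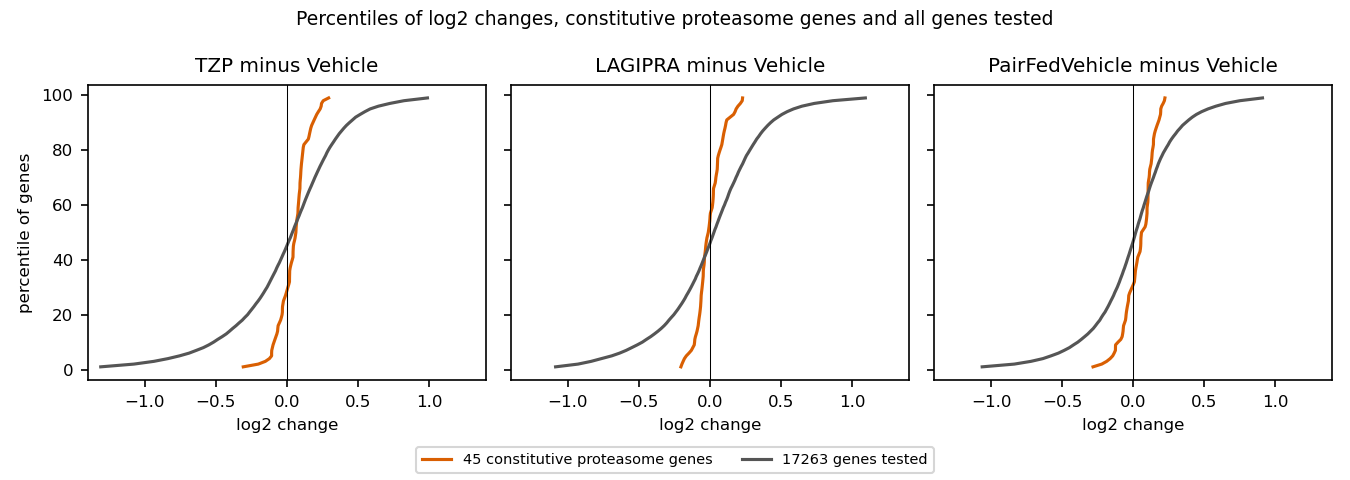
Percentiles of log2 differences from Vehicle, with the 45 constitutive proteasome genes in orange and the 17263 genes tested in grey, for TZP, LAGIPRA and PairFedVehicle from left to right. The orange curves are steeper: proteasome genes spanned -0.41 to 0.33 in TZP, -0.21 to 0.23 in LAGIPRA and -0.34 to 0.23 in PairFedVehicle.

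In brown fat of TZP mice, 4 constitutive members rose and 1 fell against Vehicle. Over all genes tested, 11.7% were called higher and 10.3% lower in that comparison. The genes that rose encode an assembly chaperone (Psmg1), an ATPase of the regulatory particle (Psmc4), a structural beta subunit (Psmb3) and an alpha subunit (Psma3). The gene that fell was Psme4, which encodes a nuclear activator that caps the core particle in place of the regulatory particle. The median difference of the 45 was 0.06, against 0.04 over all genes tested, and 32 of the 45 had a difference above 0.

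Psmg1 partners PSMG2 in building the alpha ring. Its lowest, median and highest values were 6.50, 6.66 and 6.72 in TZP, against 6.13, 6.30 and 6.46 in Vehicle. The 6 TZP libraries thus all lay above the 6 Vehicle libraries, with a log2 difference of 0.33 (SE 0.072, adjusted p = 0.00318). Psmg1 was the constitutive member with the highest difference and the only one of the 45 without overlap between these groups, against 5.45% of all genes tested. When the length slope was removed from each library, the difference was 0.19 (adjusted p = 0.0596), and without TZP libraries 3 to 6 it was 0.28 (adjusted p = 0.104).

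Psmg2, named after its values were seen, averaged 6.15 ± 0.08 in TZP, 6.14 ± 0.13 in LAGIPRA, 6.13 ± 0.21 in PairFedVehicle and 5.91 ± 0.13 in Vehicle (SD, n = 6 each). Its differences from Vehicle were 0.24, 0.23 and 0.22 in the order TZP, LAGIPRA and PairFedVehicle, and did not pass (adjusted p = 0.0551, 0.0847 and 0.132). Pomp, which guides the maturation of the beta ring, averaged 8.45 ± 0.10 in TZP, 8.33 ± 0.10 in LAGIPRA, 8.41 ± 0.12 in PairFedVehicle and 8.53 ± 0.14 in Vehicle (SD, n = 6 each). It was not called in any comparison, and its smallest adjusted p was 0.0624, for LAGIPRA against Vehicle with a difference of -0.20.

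The 3 constitutive catalytic subunits, which the immunoproteasome subunits replace, did not pass in any comparison. Psmb5 carries the chymotrypsin-like site, Psmb6 the caspase-like site and Psmb7 the trypsin-like site. Psmb5 ran from 9.05 to 9.26 in TZP (median 9.17), against 8.92 to 9.30 in Vehicle (median 9.08), with a difference of 0.10 (95% interval -0.04 to 0.24). Psmb6 differed by 0.17 (interval 0.00 to 0.34, adjusted p = 0.137) and Psmb7 by 0.11 (interval 0.00 to 0.22, adjusted p = 0.135) in TZP against Vehicle. The lower ends for Psmb6 and Psmb7 are just positive, and the intervals are not adjusted for the number of genes. All 3 intervals leave room for a small difference but lie within a 1.5-fold change. Pseudogene rows of Psmb6 and Psmb7 had values too (Psmb6-ps2 averaged 6.08 in TZP, 5.79 in LAGIPRA, 5.87 in PairFedVehicle and 5.65 in Vehicle), so reads of Psmb6 and Psmb7 may be divided between rows and both are uncertain.

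Among the other parts of the particle, Psmc4 averaged 8.11 ± 0.06 in TZP and 7.92 ± 0.08 in Vehicle (SD, n = 6 each), a difference of 0.19 (SE 0.052, adjusted p = 0.0114). The groups overlapped slightly, with the lowest TZP library at 8.01 and the highest Vehicle library at 8.02. Psmb3 differed by 0.25 (adjusted p = 0.0331) and Psma3 by 0.21 (adjusted p = 0.0478), both with overlapping groups. With 1 library left out, the call of Psma3 was lost for 18 of the 24 libraries and that of Psmb3 for 7. None of the 11 non-ATPase subunits of the regulatory particle was called in this comparison, with differences from -0.11 to 0.10. Of the 45 intervals, 44 lay within a 1.5-fold change and 31 within a 1.2-fold change. The 5 calls became 2 to 6 with 1 library left out, 1 with the level of 1 read as a covariate, and 0 without TZP libraries 3 to 6, when 2 TZP libraries remained.

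Psme4 had values of 5.59, 6.10 and 6.51 in TZP (lowest, median, highest), against 6.27, 6.49 and 6.64 in Vehicle. TZP libraries 1 and 2 lay at 6.44 and 6.51, inside the Vehicle range, and libraries 3 to 6 lay at 5.59 to 6.12, below it. The difference was -0.41 (SE 0.145, adjusted p = 0.0442). Psme4 has the longest transcript of the constitutive members, 6491 bases. With the length slope of each library as a covariate the difference was 0.11 (adjusted p = 0.712), and without TZP libraries 3 to 6 it was -0.01. The call was also lost without any 1 of 12 libraries.

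**Figure D3:**
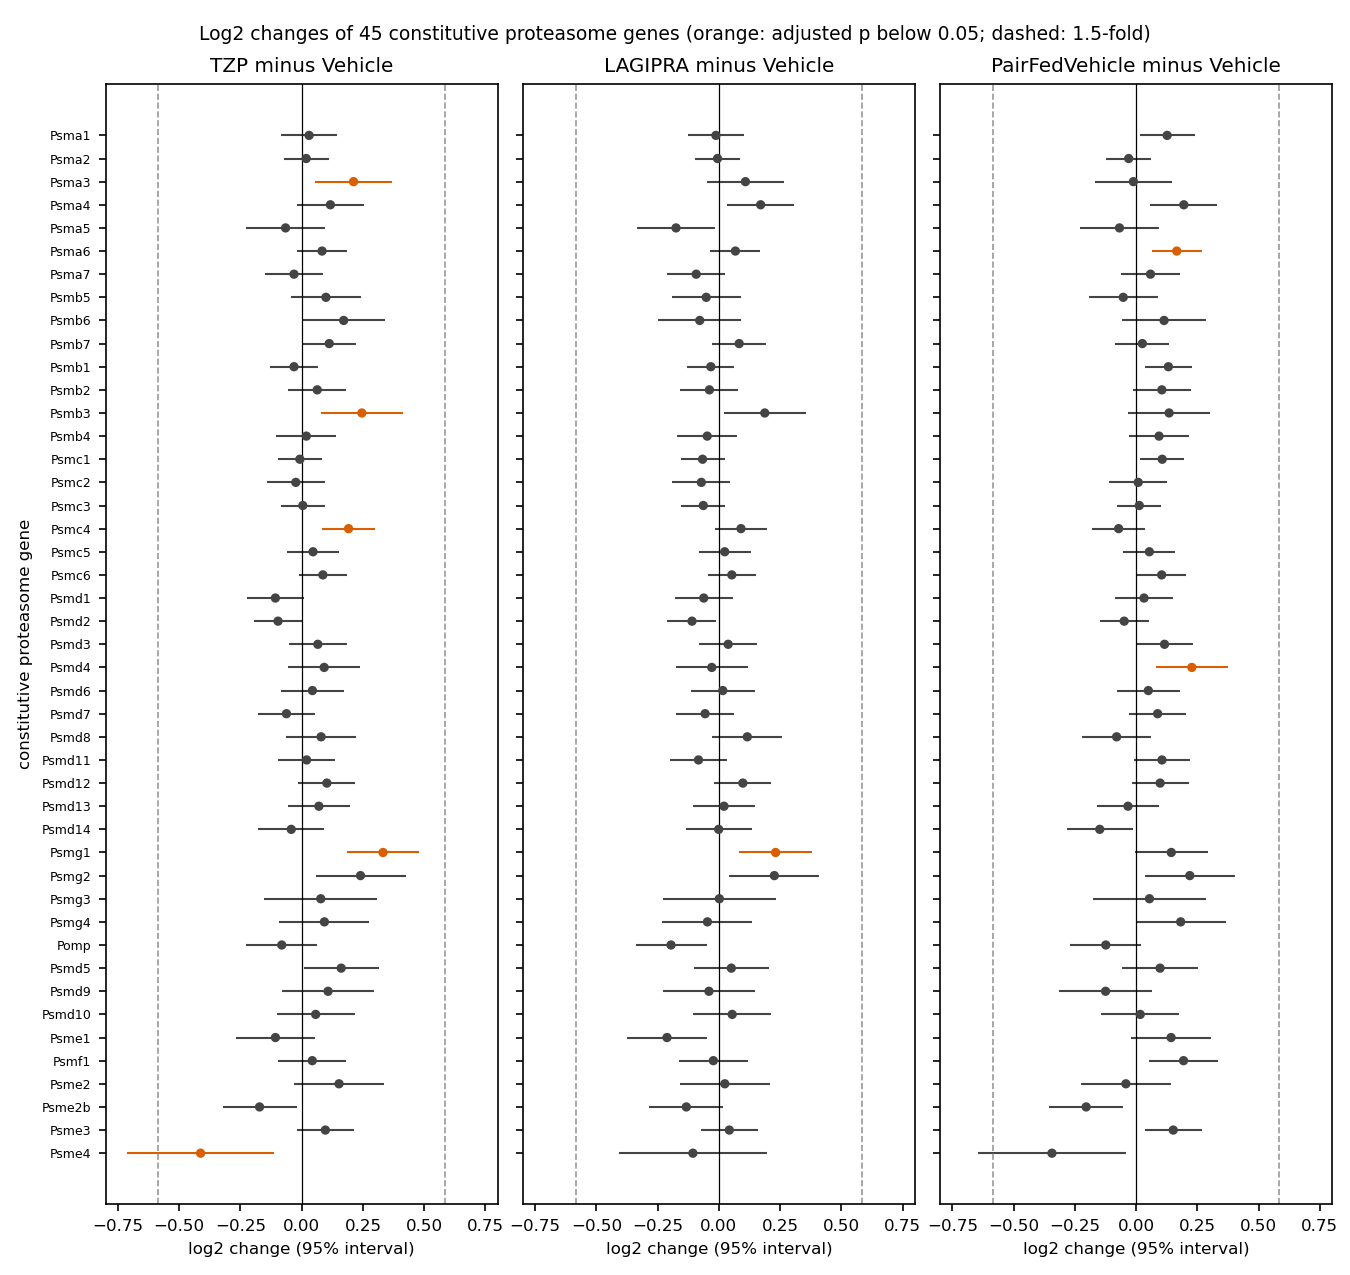
Log2 differences from Vehicle of the 45 constitutive proteasome genes with 95% intervals, for TZP, LAGIPRA and PairFedVehicle from left to right, with genes in order of their place in the particle. Orange marks an adjusted p below 0.05 (5 genes in TZP, 1 in LAGIPRA and 2 in PairFedVehicle), and dashed lines mark a 1.5-fold change, which no point passes.

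In brown fat of LAGIPRA mice, 1 constitutive member rose and 0 fell against Vehicle, where 8.7% and 5.03% of all genes tested were called higher and lower. The gene was again Psmg1, at 6.39, 6.55 and 6.61 in LAGIPRA (lowest, median, highest), against 6.13, 6.30 and 6.46 in Vehicle. The groups overlapped, with a difference of 0.23 (SE 0.072, adjusted p = 0.036). At an unadjusted p below 0.05 limma gave 8 of the 45 members and 5436 of the 17263 genes tested. Of the members, 20 had a difference above 0 and the median was -0.01, against 0.03 over all genes tested. All 45 intervals lay within a 1.5-fold change and 35 within a 1.2-fold change. The lowest difference was -0.21 for Psme1 (adjusted p = 0.0702), a subunit of the interferon-inducible activator of the core particle. The call of Psmg1 was lost without any 1 of LAGIPRA libraries 1, 2, 4 or 5 or Vehicle libraries 1, 3 or 6.

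In pair-fed mice, 2 constitutive members rose and 0 fell against Vehicle, where 4.96% and 3.66% of all genes tested were called higher and lower. Psma6, an alpha subunit, averaged 9.38 ± 0.07 in PairFedVehicle and 9.21 ± 0.05 in Vehicle (SD, n = 6 each), a difference of 0.17 (SE 0.049, adjusted p = 0.0376). Psmd4, a ubiquitin receptor of the regulatory particle, averaged 7.92 ± 0.14 in PairFedVehicle and 7.69 ± 0.12 in Vehicle (SD, n = 6 each), a difference of 0.23 (SE 0.071, adjusted p = 0.0482). Both genes overlapped between the groups, as all 45 members did, while 4.76% of all genes tested did not overlap. The median difference of the 45 was 0.06, against 0.02 over all genes tested. An unadjusted p below 0.05 was found for 13 members and for 3977 of the 17263 genes tested. With only these 2 groups in the fit 0 members passed, and with 1 library left out 0 to 2 did.

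Against the pair-fed mice, whose food was restricted, TZP mice had 2 constitutive members that rose and 2 that fell. Of all genes tested, 8.39% were called higher and 8.02% lower. Psmc4 had values of 8.01, 8.11 and 8.17 in TZP (lowest, median, highest), against 7.72, 7.88 and 7.92 in PairFedVehicle. All TZP libraries lay above all PairFedVehicle libraries, with a difference of 0.26 (SE 0.052, adjusted p = 0.00167), and the call was lost without TZP libraries 3 to 6, where the difference was 0.25. Psma3 rose by 0.22 (adjusted p = 0.0465), a call lost without any 1 of 16 of the 24 libraries (adjusted p up to 0.0945). Psmb1, a structural beta subunit, fell by 0.16 (adjusted p = 0.0186), and Psme1 fell by 0.25 (adjusted p = 0.0314). The call of Psmb1 was lost without PairFedVehicle library 4, and that of Psme1 without TZP library 1, 2 or 5 or PairFedVehicle library 2 or 4. Groups did not overlap for 4 of the 45 members (Psmc4, Psma3, Psmb1 and Psme2), against 4.92% of all genes tested. Psme2, named after its values were seen, had a difference of 0.19 that did not pass (adjusted p = 0.146), and since reads of Psme2 and its near copy Psme2b may be shared, both are uncertain. Removing the length slope from each library gave 10 calls in place of 4, with 2 higher and 8 lower.

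LAGIPRA mice had 1 constitutive member that rose and 6 that fell against pair-fed mice, where 7.3% and 4.55% of all genes tested were called higher and lower. Psme1, of the interferon-inducible activator, was counted among the 45. It had values of 7.50, 7.59 and 7.66 in LAGIPRA (lowest, median, highest), against 7.74, 7.94 and 8.13 in PairFedVehicle. The groups did not overlap, and the difference was -0.35 (SE 0.079, adjusted p = 0.00438). Psmc1, an ATPase of the regulatory particle, was at 7.96, 8.03 and 8.12 in LAGIPRA, against 8.16, 8.20 and 8.27 in PairFedVehicle. These groups did not overlap either, with a difference of -0.17 (SE 0.043, adjusted p = 0.0105). Psmd4 fell by 0.26 (adjusted p = 0.0204) and Psmb1 by 0.16 (adjusted p = 0.0223). Psmd11, a lid subunit, and Psmf1, an inhibitor of the core particle, were named after their values were seen and fell by 0.19 and 0.22 (adjusted p = 0.0295 and 0.0387). Psmc4 rose by 0.16 (adjusted p = 0.044), a call lost without any 1 of 14 of the 24 libraries. The number of calls was 3 to 9 with 1 library left out, and it was 3 without LAGIPRA library 6 or without PairFedVehicle library 4. Groups did not overlap for 4 of the 45, against 5.86% of all genes tested.

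For TZP against LAGIPRA, limma called 0 of the 45 constitutive members, and 0.4% of all genes tested were called in either direction, 0.0521% higher and 0.348% lower. The groups overlapped for all 45 members, and 0.811% of all genes tested did not overlap. At an unadjusted p below 0.05 there were 3 members and 2835 of the 17263 genes tested. The differences ran from -0.31 (Psme4) to 0.25 (Psmb6, adjusted p = 0.118), 38 of 45 were above 0 and the median was 0.05, against 0.01 over all genes tested. The intervals of 44 members lay within a 1.5-fold change and those of 34 within a 1.2-fold change. Without TZP library 2, 1 member passed.

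The immunoproteasome subunits fell in LAGIPRA mice. All 3 were called lower against Vehicle: on the scale of the deposited values Psmb8 fell by 36.0%, Psmb9 fell by 32.7% and Psmb10 fell by 21%, while the catalytic subunits that they replace, Psmb5, Psmb6 and Psmb7, had differences of -0.08 to 0.08 and did not pass. The 300 bases around each start (250 before and 50 after, RefSeq on GRCm38.p6) are shown for the 3 immunoproteasome genes, which fell together in 1 comparison, and for Psmb5 and Psmb6, their constitutive counterparts with a match to the antioxidant response element. Such a window was found for 43 of the 51 members. Psmb8 (chr17:34197945-34198244, plus strand) and Psmb9 (chr17:34187281-34187580, minus strand) are neighbours in the MHC region, Psmb10 lies at chr8:105938343-105938642 (minus strand), Psmb5 at chr14:54617946-54618245 (minus strand) and Psmb6 at chr11:70525107-70525406 (plus strand). Capitals mark a match to a searched motif on either strand: TTCNNNGAA in Psmb8, CCAAT (read as its reverse complement) in Psmb9, none in Psmb10, and TGACNNNGC in Psmb5 and Psmb6.
Psmb8: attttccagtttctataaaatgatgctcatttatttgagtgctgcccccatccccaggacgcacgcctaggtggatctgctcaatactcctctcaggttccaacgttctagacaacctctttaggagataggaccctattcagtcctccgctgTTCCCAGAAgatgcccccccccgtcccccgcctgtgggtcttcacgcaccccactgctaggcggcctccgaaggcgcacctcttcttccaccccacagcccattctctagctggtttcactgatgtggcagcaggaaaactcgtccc
Psmb9: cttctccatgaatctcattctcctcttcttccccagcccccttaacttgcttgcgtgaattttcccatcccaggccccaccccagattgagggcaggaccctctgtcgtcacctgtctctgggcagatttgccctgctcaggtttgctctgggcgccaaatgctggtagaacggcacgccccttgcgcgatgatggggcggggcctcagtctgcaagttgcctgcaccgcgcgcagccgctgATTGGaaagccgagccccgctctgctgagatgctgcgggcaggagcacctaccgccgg
Psmb10: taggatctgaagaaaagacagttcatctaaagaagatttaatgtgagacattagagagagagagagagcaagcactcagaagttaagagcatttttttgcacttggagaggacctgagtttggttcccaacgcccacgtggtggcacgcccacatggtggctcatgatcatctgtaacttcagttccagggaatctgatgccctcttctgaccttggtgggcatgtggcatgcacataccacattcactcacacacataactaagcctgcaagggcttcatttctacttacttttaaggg
Psmb5: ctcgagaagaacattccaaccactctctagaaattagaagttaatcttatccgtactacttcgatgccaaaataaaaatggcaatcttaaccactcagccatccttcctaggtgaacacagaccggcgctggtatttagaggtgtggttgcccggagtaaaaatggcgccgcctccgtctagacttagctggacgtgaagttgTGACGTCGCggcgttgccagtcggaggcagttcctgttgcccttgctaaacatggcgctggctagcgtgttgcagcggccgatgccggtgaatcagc
Psmb6: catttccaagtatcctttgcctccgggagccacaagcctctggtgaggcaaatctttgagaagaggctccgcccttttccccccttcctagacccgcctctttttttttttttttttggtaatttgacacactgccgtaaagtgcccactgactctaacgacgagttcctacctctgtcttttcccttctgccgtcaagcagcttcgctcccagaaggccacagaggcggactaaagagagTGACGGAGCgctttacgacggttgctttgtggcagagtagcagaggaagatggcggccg

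Over the windows of all genes and on both strands, TGACNNNGC, the core of the element that NFE2L1 and related factors bind, occurred in 14% of 27025 genes and in 6 of the 38 constitutive members with a window (Psmb5, Psmb6, Psmc6, Psmd12, Psmd9 and Psme4). CCAAT, which nuclear factor Y binds, occurred in 41.1% of all genes and in 12 of the 38. GAAA, any 2 bases and GAAA again, a core of interferon-stimulated elements, occurred in 4.0% of all genes and in 5 of the 38 (Psmb3, Psmd4, Psmd9, Psme1 and Psmg4). TTCNNNGAA, the form of gamma-activated sites, occurred in 9.6% of all genes and in 2 of the 38 (Psmd2 and Psmg1). A match describes letters in the window and was not tested for binding.

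Psmb8, which takes the place of Psmb5, had values of 3.99, 4.17 and 4.46 in LAGIPRA (lowest, median, highest), against 4.50, 4.80 and 5.18 in Vehicle. All 6 LAGIPRA libraries lay below all 6 Vehicle libraries, as was the case for 4.65% of all genes in either direction. The difference was -0.64 (SE 0.143, adjusted p = 0.00994), and it passed with any of the 24 libraries left out. Psmb9, which takes the place of Psmb6, was at 4.09, 4.51 and 4.63 in LAGIPRA, against 4.52, 5.06 and 5.54 in Vehicle, a difference of -0.57 (SE 0.157, adjusted p = 0.0219). Psmb10, which takes the place of Psmb7, was at 6.50, 6.64 and 6.75 in LAGIPRA, against 6.70, 6.996 and 7.28 in Vehicle, a difference of -0.34 (SE 0.103, adjusted p = 0.0325). The groups overlapped for both genes. Psmb9 no longer passed without Vehicle library 1, Vehicle library 6 or LAGIPRA library 5, and Psmb10 no longer passed without any 1 of 7 libraries (LAGIPRA 4, 5 or 6 and Vehicle 1, 3, 4 or 6).

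The immunoproteasome subunits did not pass in the other comparisons. In TZP against Vehicle, Psmb8, Psmb9 and Psmb10 had differences of -0.22, -0.19 and -0.17 (adjusted p = 0.284, 0.413 and 0.237), and in PairFedVehicle against Vehicle they had -0.29, -0.38 and -0.23 (adjusted p = 0.223, 0.141 and 0.188). TZP against LAGIPRA, which tests whether these 2 treatments differed, gave 0.42, 0.38 and 0.17 (adjusted p = 0.124, 0.221 and 0.429), and LAGIPRA against PairFedVehicle gave -0.35, -0.19 and -0.12 (adjusted p = 0.116, 0.481 and 0.52). Within TZP, Psmb8 was 4.23 and 4.21 in libraries 1 and 2, inside the LAGIPRA range, and 4.71 to 4.95 in libraries 3 to 6, inside the Vehicle range. Without TZP libraries 3 to 6, TZP against Vehicle gave -0.60, -0.51 and -0.35 for Psmb8, Psmb9 and Psmb10 (adjusted p = 0.0554, 0.147 and 0.132).

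**Figure D4:**
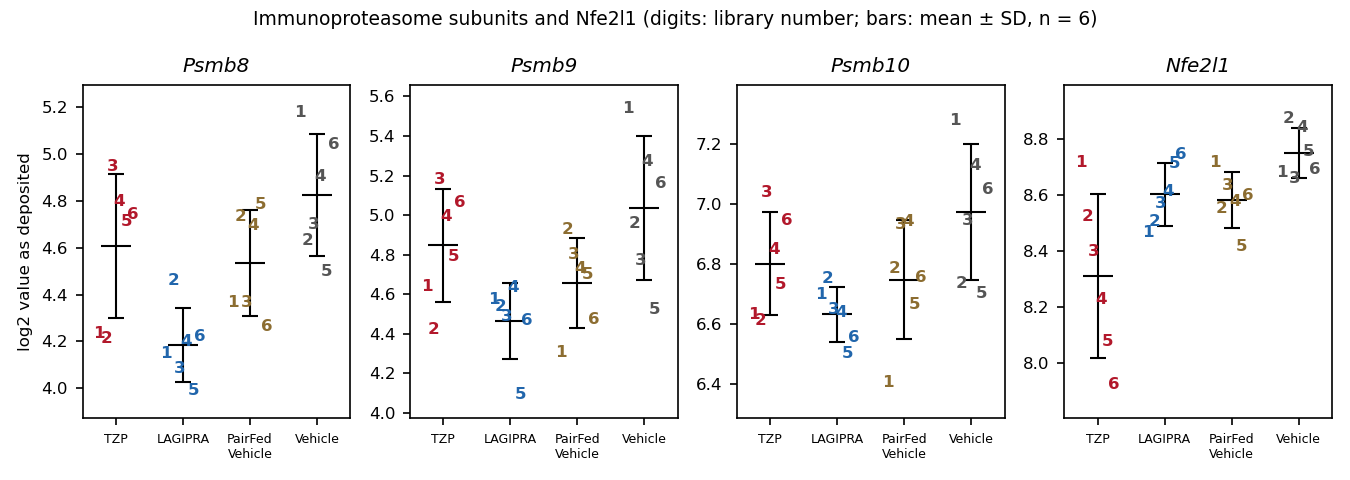
Deposited log2 values of Psmb8, Psmb9, Psmb10 and Nfe2l1 in each library, with the library's number within its group as the symbol and bars at mean ± SD (n = 6 per group); each panel has its own axis, which does not start at 0. For Psmb8 the LAGIPRA libraries (3.99 to 4.46) lie below the Vehicle libraries (4.50 to 5.18), and for Nfe2l1 the TZP libraries spread over 7.92 to 8.71.

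Genes of immune cells and of the interferon gamma response moved beside the immunoproteasome in LAGIPRA against Vehicle. Of all genes tested, 8.7% were called higher and 5.03% lower there. Of 10 macrophage markers, 0 rose and 7 fell (median -0.83), and their summed level ran from 12.52 to 13.71 in LAGIPRA, against 13.16 to 14.27 in Vehicle. Of 4 lymphocyte markers tested, 1 fell, Ptprc, a general leukocyte marker, and the summed level of all 10 listed ran from 5.24 to 6.80 in LAGIPRA, against 5.86 to 8.03 in Vehicle. No marker of either list was at 0 in every library. Of 15 genes of the interferon gamma response and antigen presentation, 7 fell in LAGIPRA against Vehicle, with a median of -0.45. B2m, the light chain of MHC class I, fell by 0.72 (adjusted p = 0.00491), Nlrc5, a transactivator of MHC class I genes, by 0.74 (adjusted p = 0.0159), and Tapbp, of the peptide-loading complex, by 0.30 (adjusted p = 0.0115). In LAGIPRA the level of 1 read was also higher, and with it as a covariate Psmb8, Psmb9 and Psmb10 differed by -0.57, -0.50 and -0.26 and did not pass (adjusted p = 0.11, 0.179 and 0.253). None of the 7 interferon gamma and antigen genes passed with that covariate either. The part of immune cell number and of depth in the fall of the subunits and of these 7 genes was not tested.

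In TZP against Vehicle, where 10.3% of all genes tested were called lower, 6 of the 15 interferon gamma and antigen genes fell (median -0.33). Among the 6, Nlrc5 fell by 0.84, B2m by 0.48 and Ciita, the transactivator of MHC class II genes, by 1.08 (adjusted p = 0.00379, 0.0104 and 0.0125). Without TZP libraries 3 to 6 the differences of Nlrc5, B2m and Ciita were -0.64, -0.53 and -0.68, and none of the 6 passed. In the same comparison 1 of the 10 macrophage markers fell, and their summed level ran from 12.86 to 13.96 in TZP. In PairFedVehicle against Vehicle, where 3.66% of all genes tested were called lower, 1 of the 15 fell (Tapbp, by 0.28, adjusted p = 0.0163). There 0 macrophage markers were called, although 3 had an unadjusted p below 0.05. Against PairFedVehicle, 2 of the 15 fell in TZP (Erap1 and Ciita) and 1 in LAGIPRA (B2m), where 8.02% and 4.55% of all genes tested were called lower. Of the 15, limma called 0 in TZP against LAGIPRA, with 2 at an unadjusted p below 0.05. Over all genes tested 0.4% were called there in either direction, and 2835 of 17263 had an unadjusted p below 0.05.

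In TZP mice Nfe2l1 fell by 26.3% against Vehicle. Its values were 7.92, 8.31 and 8.71 in TZP (lowest, median, highest), 8.46, 8.59 and 8.74 in LAGIPRA, 8.41, 8.59 and 8.72 in PairFedVehicle, and 8.66, 8.72 and 8.87 in Vehicle. The means were 8.31 ± 0.29, 8.60 ± 0.11, 8.58 ± 0.10 and 8.75 ± 0.09 (SD, n = 6 each) in the same order of groups. TZP was thus the lowest group and the most spread, and 1 of its libraries reached into the Vehicle range. The difference of TZP from Vehicle was -0.44 (SE 0.097, adjusted p = 0.00353), and it passed with any of the 24 libraries left out. LAGIPRA and PairFedVehicle, which lay between TZP and Vehicle, differed from Vehicle by -0.15 and -0.17 (adjusted p = 0.302 and 0.312). TZP differed from PairFedVehicle by -0.27 (adjusted p = 0.0578) and from LAGIPRA by -0.29 (adjusted p = 0.119), and neither passed.

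The low values of Nfe2l1 in TZP lay in the libraries with a low length slope. Libraries 1 and 2, with slopes of 0.0179 and 0.0199, had values of 8.71 and 8.52. Libraries 3, 4, 5 and 6, with slopes of -0.0643, -0.0884, -0.117 and -0.165, had 8.40, 8.23, 8.07 and 7.92. The transcript of Nfe2l1 is 4654 bases long, against a median of 2914 for all genes tested. Without TZP libraries 3 to 6 the difference from Vehicle was -0.13 (adjusted p = 0.359) and that from PairFedVehicle was 0.04. With the length slope of each library as a covariate the difference from Vehicle was -0.09 (adjusted p = 0.657). With the length slope removed from the values of each library it was -0.34 (adjusted p = 0.00666). The slope and the treatment overlap in these libraries and cannot be told apart, except that TZP libraries 1 and 2 have slopes inside the range of the other groups.

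Markers of other cell types also moved in TZP against Vehicle, where 10.3% of all genes tested were called lower. Of 8 endothelial markers 5 fell, with a summed level of 11.31 to 11.89 in TZP, against 12.10 to 12.66 in Vehicle. Of 5 erythroid markers 5 fell, with a summed level of 14.21 to 15.67 in TZP, against 15.31 to 16.65 in Vehicle. The part of these cell types in the fall of Nfe2l1 was not tested.

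**Figure D5:**
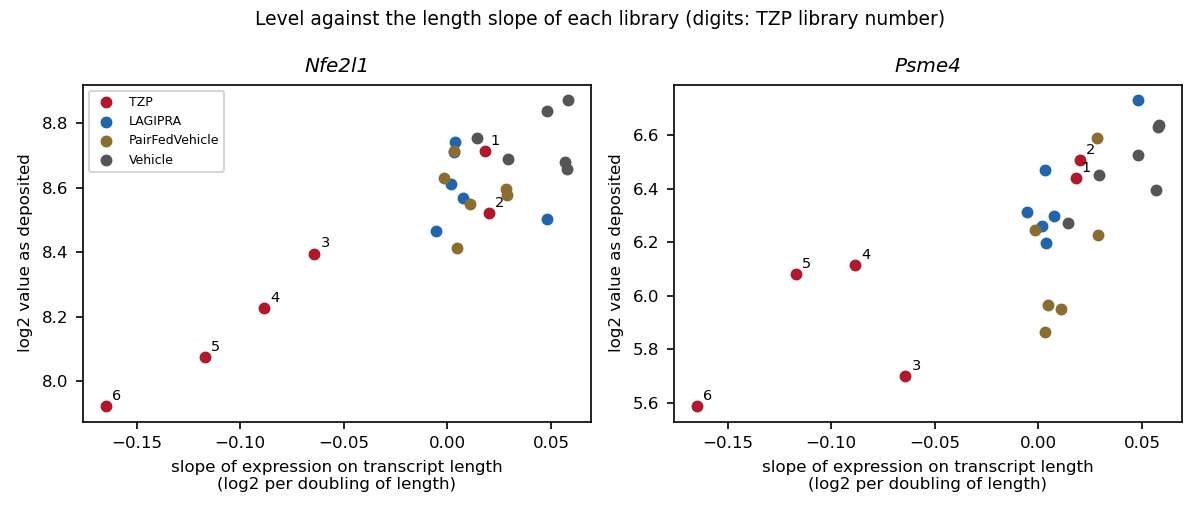
Deposited log2 values of Nfe2l1 (left) and Psme4 (right) against the length slope of each library, with groups by colour and TZP libraries numbered. TZP libraries 3 to 6 stand apart at slopes of -0.165 to -0.0643, where Nfe2l1 lies at 7.92 to 8.40 and Psme4 at 5.59 to 6.12.

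RNA was measured for a list of 18 genes around NFE2L1. Among them were genes for its release and processing, related factors, and partners that pair with NFE2L1 on DNA. In TZP against Vehicle 2 of the 18 rose and 4 fell, where 11.7% and 10.3% of all genes tested were called higher and lower, and the median was -0.15. The genes that fell furthest were low in TZP libraries 3 to 6, which have a low length slope. Sel1l, of the ubiquitin ligase complex that retrieves proteins from the endoplasmic reticulum, fell by 0.82 (adjusted p = 0.00125). Hcfc1 and Ogt, whose proteins act together in adding a sugar to NFE2L1, fell by 1.62 (adjusted p = 0.0019) and 0.64 (adjusted p = 0.00804). Ddi2, the protease that cuts NFE2L1 into its active form, fell by 0.40 (adjusted p = 0.0106; named after its values were seen). Ufd1, a cofactor of the extracting ATPase VCP, rose by 0.30 (adjusted p = 0.0125), and Ngly1, which removes the sugars of NFE2L1, rose by 0.23 (adjusted p = 0.0324). TZP and Vehicle libraries did not overlap for Ufd1. For Hcfc1 the highest TZP library, at 6.3543, and the lowest Vehicle library, at 6.3550, all but met.

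Hcfc1 was 6.35 and 6.18 in TZP libraries 1 and 2 and 3.80 to 4.85 in libraries 3 to 6 (SD over the 6 of 1.15), against an SD of 0.12 in Vehicle. Ogt was 5.89 and 6.00 in TZP libraries 1 and 2, inside the Vehicle range of 5.63 to 6.17, and 4.77 to 5.34 in libraries 3 to 6. Sel1l was 5.46 and 5.79 in TZP libraries 1 and 2 and 4.69 to 5.20 in libraries 3 to 6, against 5.64 to 6.23 in Vehicle. Without TZP libraries 3 to 6 the differences from Vehicle were -0.21 for Hcfc1, -0.02 for Ogt, -0.32 for Sel1l and -0.18 for Ddi2, and 1 of the 6 calls, Ngly1, was kept. With the length slope as a covariate Ogt differed by 0.13, and again Ngly1 alone of the 6 passed. When the slope was removed from each library instead, 5 of the 6 passed.

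In LAGIPRA against Vehicle 2 of the 18 rose and 2 fell, where 8.7% and 5.03% of all genes tested were called higher and lower. Ufd1 rose by 0.33 without overlap (adjusted p = 0.0151) and Ngly1 by 0.23 (adjusted p = 0.046). Ddi2 fell by 0.41 (adjusted p = 0.0161) and Sel1l by 0.47 (adjusted p = 0.0386). The call of Ngly1 was lost without any 1 of 14 of the 24 libraries, and that of Sel1l without any 1 of 10. None of these 4 calls was kept with the level of 1 read as a covariate. In PairFedVehicle against Vehicle 0 rose and 2 fell, where 4.96% and 3.66% of all genes tested were called higher and lower. The 2 that fell were Maff, by 1.51 (adjusted p = 0.000957), and Mafk, by 0.50 (adjusted p = 0.0263), both small MAF proteins that pair with NFE2L1 on DNA. Against PairFedVehicle, 8.39% of all genes tested were called higher in TZP and 8.02% lower. In that comparison Maff rose by 1.09 (adjusted p = 0.00793), without overlap, and Ogt, Hcfc1 and Sel1l fell. None of these 4 passed without TZP libraries 3 to 6, with differences of 1.11 for Maff, -0.15 for Ogt, -0.11 for Hcfc1 and -0.09 for Sel1l. In LAGIPRA against PairFedVehicle, where 4.55% of all genes tested were called lower, 1 fell, Os9. In TZP against LAGIPRA, where 0.348% were called lower, 1 fell, Hcfc1 by 1.45 (adjusted p = 0.0474). Hcfc1 ran from 3.80 to 6.35 in TZP, against 6.07 to 6.53 in LAGIPRA. That difference was -0.04 without TZP libraries 3 to 6, and the call was lost without any 1 of 22 of the 24 libraries.

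A list of partners of the proteasome held 20 symbols, of which 16 had a row. Shfm1, Ecpas, Paaf1 and Pi31 had none, and some of these are other names of genes that had a row. In TZP against Vehicle, Adrm1, a ubiquitin receptor of the regulatory particle, rose by 0.20 (adjusted p = 0.0484), and 2 genes fell. In that comparison 11.7% of all genes tested were called higher and 10.3% lower. Ubqln2, a shuttle that carries ubiquitinated proteins to the proteasome, fell by 0.31 (adjusted p = 0.0191), and Ube3c, a ubiquitin ligase at the proteasome, by 0.42 (adjusted p = 0.0383). Ube3c was 6.56 and 6.35 in TZP libraries 1 and 2 and 5.32 to 5.97 in libraries 3 to 6, against 6.15 to 6.44 in Vehicle. Its difference from Vehicle was 0.12 without TZP libraries 3 to 6, and none of the calls of this list in TZP against Vehicle then passed. Ubqln2 also fell in LAGIPRA against Vehicle, by 0.31 (adjusted p = 0.0312), and in TZP and LAGIPRA against PairFedVehicle, by 0.34 in both. The shares of all genes tested called lower were 5.03%, 8.02% and 4.55% in the same order. In LAGIPRA against PairFedVehicle the related shuttles Ubqln1 and Ubqln4 rose by 0.30 and 0.28 (adjusted p = 0.00366 and 0.0228). There 7.3% of all genes tested were called higher. In PairFedVehicle against Vehicle limma called 0 of the 16, with 1 at an unadjusted p below 0.05, and in TZP against LAGIPRA 0, with 2 at that level. Over all genes tested, 4.96% were called higher and 3.66% lower in the former, and 0.4% in either direction in the latter. An unadjusted p below 0.05 was found for 3977 and 2835 of the 17263 genes tested.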

How the data were processed

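PolyA RNA libraries of brown adipose tissue were made by the authors, per the labels' protocols with TRIzol and a lipid tissue kit. The submitters' processing notes name cutadapt 1.9.1 and GSNAP without a role; the sources used here do not give the build, annotation, counter or strandedness. The deposited values of 23017 genes were read as log2 values with an offset near 1, quantile normalized, from the values themselves: medians of libraries ran from 4.6133 to 4.6166 and values from -0.50 to 22.35. Such an offset understates changes of low genes. Read depth is unknown.

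From these values, the 25% of genes with the lowest mean (5754, below 2.86) were left out. The other 17263 were tested with limma 3.58.1 in R 4.3.3: 1 mean per group over all 24 libraries, empirical Bayes with a mean-variance trend, two-sided, Benjamini-Hochberg adjustment over all genes, threshold 0.05. The table of all genes was fitted and the members read from it. The procedure was tested on simulated data with independent noise and the same SD of a gene in all groups. That setting does not hold the wider spread or the length slope of the TZP libraries. No library was dropped and none imputed. Labels do not say that libraries come from separate animals, so p-values measure the spread between libraries. Transcript lengths were those of the longest transcript in GENCODE M21 (found for 89.2% of genes tested). Motifs were searched in RefSeq windows of GRCm38.p6. Plots came from matplotlib 3.10.9 (Python 3.11.15).

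The members and lists were chosen with earlier results of these data known. Named throughout were Nfe2l1, Pomp, the catalytic and immunoproteasome subunits, the members set apart, up to 4 called constitutive members per direction and comparison with the smallest p, those with the highest or lowest difference in TZP and LAGIPRA against Vehicle, and up to 3 called members per direction of each list; the results of 2 listed genes are not reported here. Alternatives were other filters, variance model, scaling and offset, covariates for depth and length, libraries left out, a replicate block and a stricter threshold.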

Additional observations from a re-analysis of the deposited data

Results flagged for a closer look

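A library was set against the other 5 of its group for 21 measures (84 checks), and 5 libraries stood farther from the rest than Dixon's 95% critical value for 6 samples allows; chance gives about 1 in 20. Psmb9 was 4.0931 in LAGIPRA library 5, against 4.4666 to 4.6345 in the other LAGIPRA libraries, and its call in LAGIPRA against Vehicle was lost without that library. Psmc4 was 7.8582 in LAGIPRA library 3, against 8.0049 to 8.0778. Psma3 was 5.9236 in Vehicle library 4, against 5.5538 to 5.6061, and Psmc1 was 8.203 in TZP library 5, against 8.0359 to 8.0912. Psmc3ip was 3.2267 in TZP library 2, against 3.9178 to 4.1357.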

How the results depend on the processing

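The counts of constitutive members called were 5, 1, 2, 4, 7 and 0 in TZP, LAGIPRA and PairFedVehicle against Vehicle, TZP and LAGIPRA against PairFedVehicle, and TZP against LAGIPRA. In that order, leaving out 1 library gave 2 to 6, 0 to 4, 0 to 2, 1 to 5, 3 to 9 and 0 to 1. The lowest counts came without Vehicle 1, 2, 3 or 6 or TZP 5 or 6 in the first comparison, without any 1 of LAGIPRA 2, 4 or 5 or Vehicle 1, 3 or 6 in the second, where the highest came without Vehicle 5, without any 1 of PairFedVehicle 1, 3, 4 or 6 or Vehicle 1, 2 or 6 in the third, without PairFedVehicle 4 in the fourth, and without LAGIPRA 6 or PairFedVehicle 4 in the fifth. Without TZP 2, the last gave 1. Fitting only the 2 groups compared gave 2, 0, 0, 1 and 4 in the first 5. The level of 1 read as a covariate gave 1, 0, 0 and 2 in the first 4. The length slope as a covariate gave 0, 2, 1 and 1, and removing it gave 1 in PairFedVehicle against Vehicle and 10 in TZP against PairFedVehicle. Without TZP libraries 3 to 6 the counts were 0 in TZP against Vehicle and 1 in TZP against PairFedVehicle. Without the mean-variance trend, PairFedVehicle against Vehicle gave 0. A threshold of 0.01 gave 1, 0, 0, 1 and 1 in the first 5. The cause of these moves was not tested, except that the stricter threshold calls less by construction.

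Of 870 values of single genes under the alternatives that leave out no single library, 636 kept direction and side of the threshold, 228 lost the call, 1 gained it and 5 changed sign: Psme4 in TZP against Vehicle, at 0.1138 under the covariate for length slope, and Nfe2l1 in TZP against PairFedVehicle, at 0.0374 without TZP libraries 3 to 6, and, in TZP against Vehicle, Ogt at 0.1255 and Ube3c at 0.2042 with that covariate and Ube3c at 0.1213 without those libraries. Libraries with the same replicate number did not deviate together: correlations of their deviations ran from -0.602 to 0.378 over 36 pairs, 12 above 0.1, so they share only a number. With the replicate number as a block the counts were 3 in TZP against Vehicle, 1 in LAGIPRA against Vehicle, 0 in PairFedVehicle against Vehicle, 3 in TZP against PairFedVehicle, 5 in LAGIPRA against PairFedVehicle and 0 in TZP against LAGIPRA. Read depth is unknown, so what it limits was not analysed here. Psma8 fell below the filter on low values, and Psmb8 below the stricter filter at the median, which gave it no value.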

Other observations

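Genes that supply ubiquitin, which marks proteins for the proteasome, were measured through a list of 13, of which 12 were tested. In LAGIPRA against PairFedVehicle, Uba1, the activating enzyme, rose by 0.14 (adjusted p = 0.0467), a call lost without any 1 of 18 of the 24 libraries. There 7.3% of all genes tested were called higher and 4.55% lower. Limma called 0 in the other 5 comparisons, where 0 to 4 of the 12 had an unadjusted p below 0.05. So did 2835 to 6168 of the 17263 genes tested. Of all genes tested, 11.7%, 8.7% and 4.96% were called higher in TZP, LAGIPRA and PairFedVehicle against Vehicle, and 10.3%, 5.03% and 3.66% lower. For TZP against PairFedVehicle the shares were 8.39% and 8.02%, and for TZP against LAGIPRA 0.4% in either direction.

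Psma8, the testis form of an alpha subunit, averaged 1.80 in TZP, 1.22 in LAGIPRA, 1.42 in PairFedVehicle and 1.499 in Vehicle and was not tested. Psmc3ip averaged 3.87 in TZP, 4.01 in LAGIPRA, 3.80 in PairFedVehicle and 3.59 in Vehicle and did not pass in any comparison.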
